A study of Danio rerio with 24 samples.

Results

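The comparison described here set zebrafish embryos exposed to actinomycin D against untreated embryos at 4 hours post fertilization (hpf). Its members were chosen by library title: 4 actinomycin D libraries and 4 untreated libraries, 8 of the 24 in the series. All embryos were wild type of the TLAB strain. The treated embryos received actinomycin D at 10 µg/ml, and the untreated embryos received no inhibitor. The treatment protocol places the drug in the embryo medium after laying, whereas the series' design text speaks of injection, so the route is not settled. Actinomycin D and untreated embryos at 3 hpf, 4 libraries each, are used below for side-by-side levels. They also entered the filter, scaling and estimate of the spread, for which alone the oligomycin groups were used. Nothing in the labels says that libraries of a group came from separate clutches, so p-values measure the spread between libraries, which may be technical.

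A zebrafish embryo begins development on RNA and protein that the mother loaded into the egg. Its own genome becomes broadly active at the mid-blastula transition, when the maternal factors Nanog, Pou5f3 and Sox19b open zygotic genes, and many maternal RNAs are then cleared, partly by zygotic products such as the microRNA miR-430. Actinomycin D binds DNA and blocks RNA polymerases, so an RNA that needs embryonic transcription should be scarce in treated embryos, whereas a stable maternal RNA should remain. In the study these embryos served as the control without zygotic transcription.

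Levels are given as CPM, read counts scaled by TMM to a common library size, with a value for each library in the order of replicates 1 to 4. Because reads come from the 3′ end of transcripts, CPM compares a gene between libraries and not one gene with another by length. CPM is a share of the sequenced RNA: total RNA per embryo was not measured, and in whole embryos fewer cells of a type and less RNA per cell cannot be told apart. Gene symbols are spelled as in the symbol table, which often uses the human form in capitals. Total counts ran from 1970066 to 3353146 in actinomycin D libraries and from 1707133 to 3010024 in untreated libraries. They did not differ beyond their spread (2-sided exact permutation test, p 0.9143).

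Of 14 identifiers for genes of later differentiated cells (muscle, blood, endothelium, neurons, lens and pigment), 0 had enough counts to be tested. The highest single-library counts were 8 in an actinomycin D library (kdrl, an endothelial receptor) and 11 in an untreated library (ELAVL3, a neuronal RNA-binding protein). Markers of the enveloping layer, the outer epithelium of the blastula, and of the yolk syncytial layer were present in untreated embryos and are described with their lists.

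RNAs lower in actinomycin D embryos were the main difference between the groups. In edgeR's quasi-likelihood fit, with p-values adjusted by Benjamini-Hochberg, 800 of 11238 genes tested (7.12%) were lower in actinomycin D embryos and 493 (4.39%) were higher, at an adjusted p under 0.05. At least 2-fold lower were 619 genes (5.51%), and at least 2-fold higher were 101 (0.899%). The asymmetry grew with the size of the difference: 478 genes were at least 4-fold lower and 259 at least 32-fold lower, against 5 and 1 that were higher by as much. The 1 gene higher by more than 32-fold has no symbol and is described last. Over all genes tested the median log2 fold change was 0.02.

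**Figure D1:**
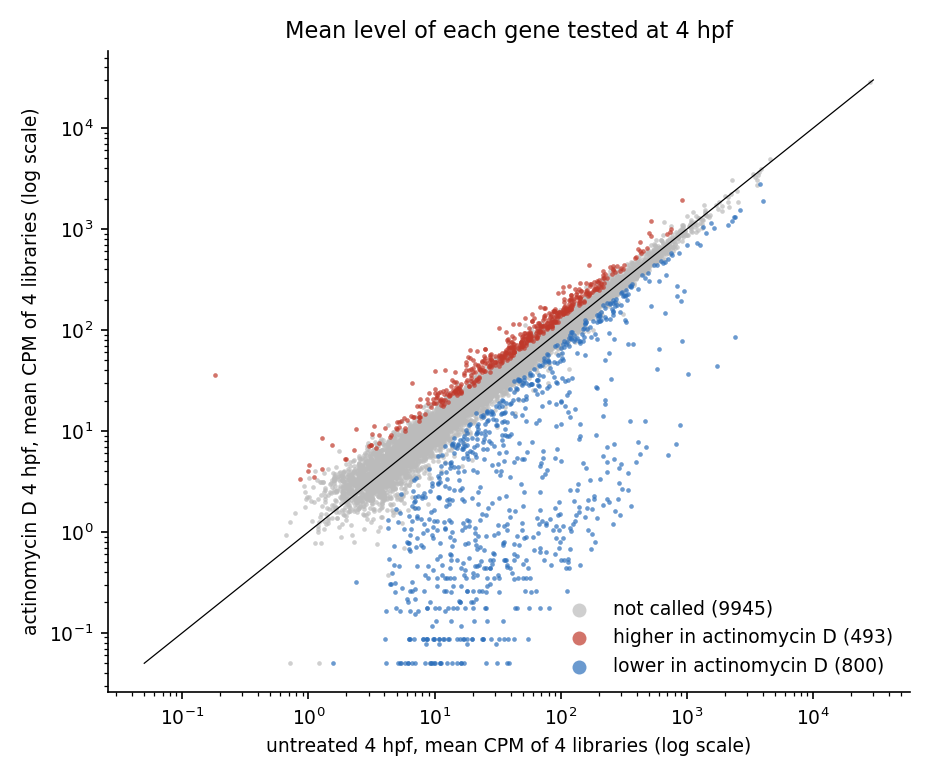
Mean CPM of 4 actinomycin D libraries (vertical, log scale) against mean CPM of 4 untreated libraries (horizontal, log scale) at 4 hpf, 1 point for each of the 11238 genes tested, with means under the axis limit drawn at the limit and the line marking equal levels. The 800 lower genes spread far below the line, many to near 0 CPM, while the 493 higher genes stay close above it.

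Without actinomycin D replicate 4, 807 genes were lower (7.08% of 11398 tested) and 385 were higher (3.38%), of which 671 (5.89%) and 101 (0.886%) by at least 2-fold. Of these, 727 lower and 357 higher genes were called both with and without that library. The number higher was 259 without untreated replicate 1 and 323 without untreated replicate 2. Blocking on the library set, the pairing that the libraries' deviations showed, gave other counts: 854 were higher (7.6%) and 1001 lower (8.91%). The 2 library series, each with 2 libraries of a group, gave unequal counts: 794 lower (7.08%) and 442 higher (3.94%) in the first, 401 lower (3.51%) and 70 higher (0.613%) in the second. At least 2-fold lower were 693 genes (6.18%) in the first and 388 (3.4%) in the second. Of these 366 were shared, which is 52.8% of those in the first and 94.3% of those in the second.

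Most of the lower genes had little RNA in actinomycin D embryos. Among the 619 at least 2-fold lower, the median of mean CPM was 1.30 in actinomycin D embryos and 25.7 in untreated embryos, and the median log2 fold change was -4.36. It was -4.77 for these genes without actinomycin D replicate 4, and -3.21 with genes at the counting floor set to that floor. In all 4 actinomycin D libraries 186 of the 619 had 3 counts or fewer, the floor used here, which is 1.21 CPM on average, and 29 had 0 counts. In replicates 1 to 3 alone 303 were at the floor and 152 had 0 counts. Others kept a higher level: 102 averaged 10 CPM or more in actinomycin D embryos, and their median log2 fold change was -1.58. The groups did not overlap for 588 of the 619. Over all genes tested, all 4 actinomycin D libraries lay below all 4 untreated libraries for 926 (8.24%).

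Fewer genes were detected in actinomycin D embryos. At a common depth of 1707133 counts, the actinomycin D libraries held counts for 14467, 14305, 14279 and 14631 genes, and the untreated libraries for 15794, 15708, 15526 and 15534 genes. The ranges did not overlap (2-sided exact permutation test, p 0.02857, the smallest that 4 against 4 unpaired libraries allow). This test did not use the pairing of libraries by set. The share of counts in lower genes was also measured in libraries that did not choose them. Genes at least 2-fold lower in the second series took 0.238% and 0.229% of counts in the first-series actinomycin D libraries, against 3.63% and 3.73% in the first-series untreated libraries. Genes chosen in the first series took 1.56% and 1.75% of counts in the second-series actinomycin D libraries, against 5.29% and 5.07% in the second-series untreated libraries.

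Actinomycin D replicate 4 stood apart among the lower genes. Over 233 lower genes with 3 counts or fewer in replicates 1 to 3 and an untreated mean of 10 CPM or more, the summed level was 44.1, 42.0, 37.9 and 500.0 CPM in actinomycin D replicates 1 to 4. It was 19005, 18617, 11508 and 10299 CPM in the untreated libraries at 4 hpf. Replicates 1 to 3 were at the floor by this rule. Replicate 4 and the untreated libraries also entered the call, at least 2-fold lower, that chose the genes. The shares are therefore a description and no independent reading. Replicate 4 held 3.37% of the untreated mean, and 208 of the 233 genes had counts there. Its median share per gene was 3.32%, with quartiles at 1.76% and 5.47% and a highest value of 17.4%. At 3 hpf the actinomycin D libraries held between 51.6 and 64.1 CPM of these genes and the untreated libraries between 528 and 3666 CPM.

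**Figure D2:**
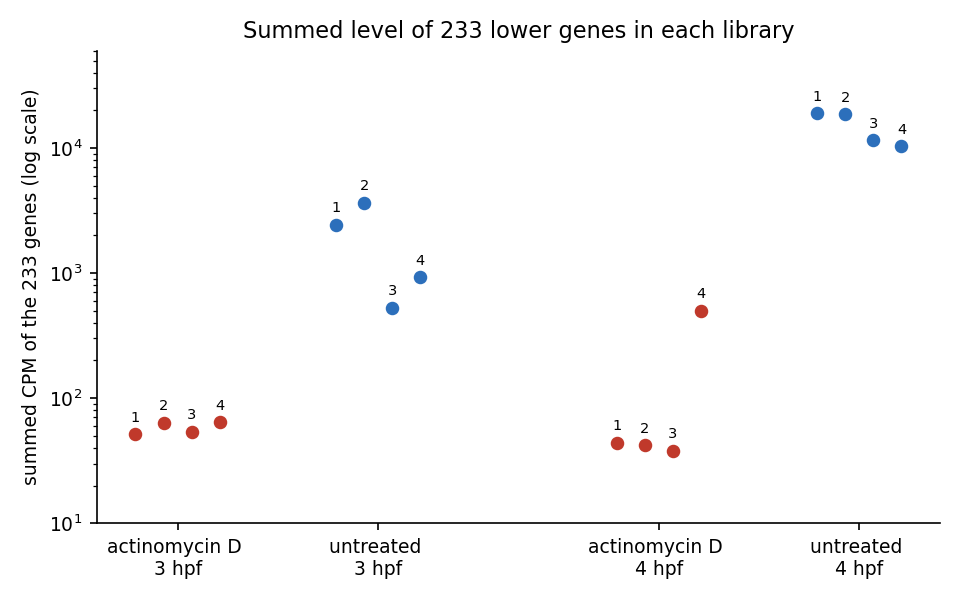
Summed CPM (log scale) of the 233 lower genes in each library, by treatment and time, with replicate numbers above the points. Actinomycin D replicate 4 at 4 hpf lies at 500.0 CPM, above the other 3 actinomycin D libraries at 37.9 to 44.1 CPM and below all 4 untreated libraries at 4 hpf. The genes were chosen from all 8 libraries at 4 hpf, as lower and at the floor in actinomycin D replicates 1 to 3.

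The genes with the highest share in replicate 4 under this rule were GBX1, IP6K2, ONECUT1, SOX17, cdkn1a and SMAD7. SOX17, a transcription factor of endoderm, had 0, 0, 0 and 1.75 CPM in actinomycin D embryos and 14.2, 6.86, 10.2 and 21.8 CPM in untreated embryos. ONECUT1, a homeobox factor, had 0, 0, 0 and 1.40 CPM in actinomycin D embryos and 16.8, 13.7, 6.59 and 4.43 CPM in untreated embryos. Both genes thus had counts in replicate 4 alone among the actinomycin D libraries; the rule that named them required groups without overlap. What sets replicate 4 apart was not tested.

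The lower genes of smallest p were of varied function. NOCT, a circadian phosphatase with the fold of a deadenylase, had 3.71, 3.11, 8.31 and 10.5 CPM in actinomycin D embryos and 82.1, 82.4, 65.9 and 59.0 CPM in untreated embryos. The rule that named these genes required groups without overlap. The log2 fold change of NOCT was -3.41 (SE 0.22, edgeR adjusted p 4.728e-10). BTG1, an antiproliferative protein that recruits the deadenylase complex, had 68.7, 72.6, 81.3 and 70.5 CPM in actinomycin D embryos and 409, 405, 274 and 269 CPM in untreated embryos. Its actinomycin D level was close to that of actinomycin D embryos at 3 hpf (mean 66.1 CPM), and its log2 fold change was -2.20 (SE 0.19, edgeR adjusted p 3.565e-08). ovol1a, a zinc finger factor of epidermis, fell by 2.95, PRKCD, a protein kinase C, by 3.61, and YY1, a zinc finger factor, by 3.84 on the log2 scale.

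Chromatin and cytoskeletal regulators were among the other genes of smallest p. BRD2, a reader of acetylated histones, had 165, 148, 229 and 229 CPM in actinomycin D embryos and 1020, 1005, 889 and 672 CPM in untreated embryos, and had a log2 fold change of -2.21 (SE 0.21, edgeR adjusted p 2.08e-07). Every actinomycin D library therefore kept BRD2 RNA, at a level under every untreated library, which the naming rule required. h2ax, a histone variant that marks DNA breaks when phosphorylated, had 3.25, 4.15, 2.16 and 2.44 CPM in actinomycin D embryos and 45.5, 44.9, 69.6 and 34.8 CPM in untreated embryos. The small GTPases RHOV and rhoaa fell by 3.06 and 2.93, the RNA-binding hnrnpa0a by 2.88 and the scaffold AMOTL2 by 1.56. The remaining gene, si:dkeyp-104f11.6, fell by 5.32, with 0, 1, 2 and 2 counts in actinomycin D libraries.

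The lower genes of highest level in untreated embryos were PNRC2, malat1, marcksl1b, HSPB1, hnrnpa0b and hmgn1b. malat1, a nuclear long noncoding RNA, had 39.0, 113, 26.5 and 164 CPM in actinomycin D embryos and 3141, 2897, 1687 and 1909 CPM in untreated embryos. HSPB1, a small heat shock protein, had 23.2, 18.1, 34.5 and 70.2 CPM in actinomycin D embryos and 1365, 1145, 835 and 768 CPM in untreated embryos. The rule that named both genes required groups without overlap. marcksl1b, an actin-binding membrane protein, had a log2 fold change of -5.29. PNRC2, which links messenger RNA decay to decapping, differed less: 1950, 2112, 1716 and 1808 CPM in actinomycin D embryos and 4482, 4649, 3368 and 3474 CPM in untreated embryos. Its level in actinomycin D embryos was thus high, and it had a log2 fold change of -1.07 (SE 0.17, edgeR adjusted p 5.866e-05).

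At the counting floor in every actinomycin D library, the 6 of highest untreated level were polr3gla, admp, PRICKLE1, bif1.2, si:dkey-11o15.10 and si:ch211-125o16.4. admp, a BMP-like ligand of the organizer, had 0, 0, 0 and 3 counts in actinomycin D libraries and 175, 107, 101 and 64.1 CPM in untreated libraries. Its untreated level was 357.3 times the actinomycin D level (95% exact interval 121.9 to 1735, counting error only). PRICKLE1, a planar cell polarity protein, had 0, 0, 0 and 2 counts in actinomycin D libraries and 108, 90.5, 70.7 and 54.9 CPM in untreated libraries. In replicates 1 to 3 alone these genes had no counts, so the untreated level was at least 88.1-fold higher for admp and at least 63.8-fold higher for PRICKLE1 against a floor of 3 counts per library. polr3gla, a subunit of RNA polymerase III, had 1, 1, 0 and 3 counts in actinomycin D libraries and 152, 172, 75 and 58.3 CPM in untreated libraries.

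All mesendoderm genes tested were lower in the main fit. Of 25 identifiers 20 had enough counts to be tested, and 20 were lower and 0 higher, with a median log2 fold change of -6.14 (-8.55 without actinomycin D replicate 4, where 21 of 21 were lower; -5.32 with genes at the floor set to it). The lists were chosen with earlier results of these data known. The counts here and in the lists below are therefore descriptions. Over all genes tested 7.12% were lower and 4.39% higher, with a median of 0.02. A gene almost absent from actinomycin D embryos passed the filter only through groups where it was higher, which largely set its direction. Members with few counts in every group were not tested. Both limits apply to the other lists too. In the second library series alone 14 of 21 genes tested were lower, with a median of -4.98. The summed level was 8.82, 18.7, 16.9 and 127 CPM in actinomycin D libraries and 4047, 3863, 2282 and 2117 CPM in untreated libraries. Untreated replicates 1 and 2, of the first library series, held more than replicates 3 and 4.

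Nodal signals induce mesendoderm in the fish blastula, and their genes differed in their level in actinomycin D embryos. ndr1, a Nodal ligand with maternal RNA, had 0.928, 1.04, 3.08 and 3.49 CPM in actinomycin D embryos and 17.2, 13.7, 17.2 and 18.1 CPM in untreated embryos. ndr2, the other ligand of the blastula, had 0, 1, 0 and 0 counts in actinomycin D libraries and 37.8, 31.8, 15.0 and 19.4 CPM in untreated libraries. Thus ndr1 kept a low level and had a log2 fold change of -2.84 (SE 0.35, edgeR adjusted p 3.489e-06), while ndr2 was close to 0 in every actinomycin D library. lft1, a feedback inhibitor of Nodal, had 0.928, 0.519, 0.924 and 3.49 CPM in actinomycin D embryos and 126, 127, 78.3 and 48.4 CPM in untreated embryos.

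Several transcription factors and a receptor of mesendoderm had counts in actinomycin D replicate 4 alone, while mixl1, a homeobox factor of mesendoderm, kept 2.78, 5.71, 3.70 and 6.98 CPM in actinomycin D embryos. tbx16, a T-box factor of mesoderm, had 0, 0, 0 and 29.7 CPM in actinomycin D embryos and 1191, 1102, 477 and 515 CPM in untreated embryos. It had a log2 fold change of -6.66 (SE 1.13, edgeR adjusted p 0.0002923), and with replicates 1 to 3 alone the untreated level was at least 646-fold higher. mxtx2, which drives the yolk syncytial layer, had 0, 0, 0 and 9.08 CPM in actinomycin D embryos and 214, 200, 162 and 160 CPM in untreated embryos. aplnrb, the apelin receptor of migrating mesendoderm, had 0, 0, 0 and 8.38 CPM in actinomycin D embryos and 313, 189, 221 and 203 CPM in untreated embryos. Replicate 4 exceeded the other actinomycin D libraries for tbx16, mxtx2 and aplnrb and stayed below every untreated library. One CXCR4 copy (ENSDARG00000041959), a chemokine receptor gene, had 0.928, 1.56, 4.31 and 24.4 CPM in actinomycin D embryos and 457, 467, 414 and 310 CPM in untreated embryos. tbxta and noto, factors of the axial mesoderm, and GATA5, of endoderm, had 3, 5 and 3 counts in replicate 4 and 0 in the other actinomycin D libraries.

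**Figure D3:**
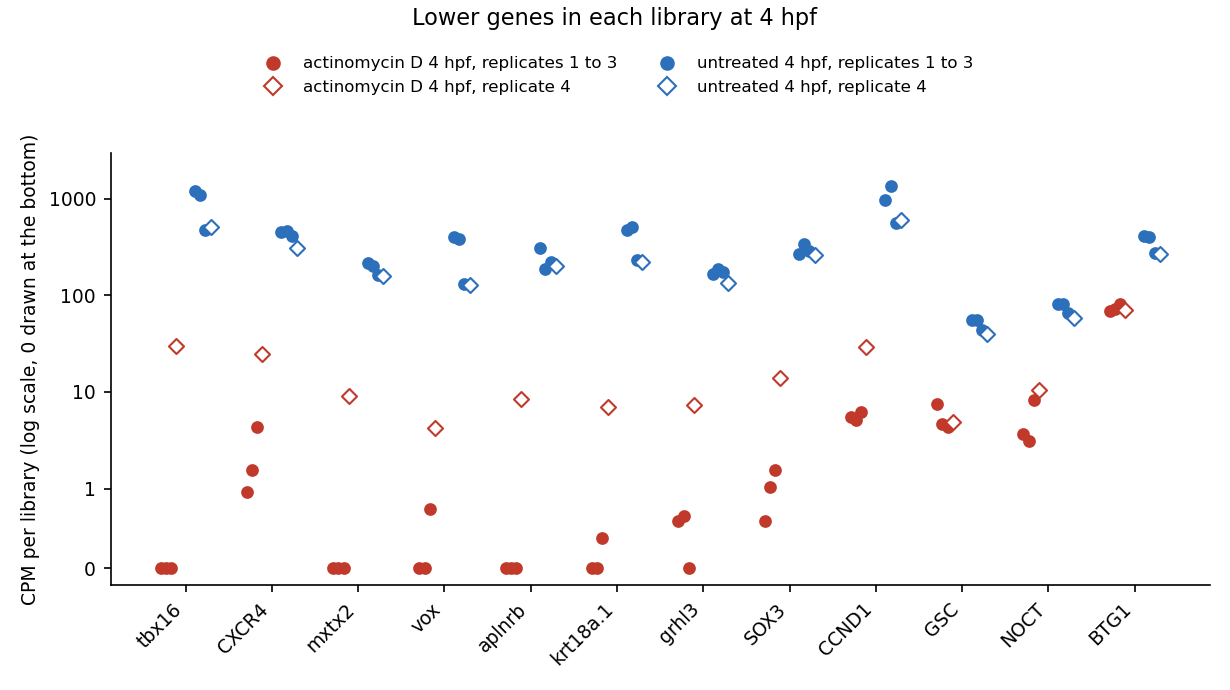
CPM (log scale, with 0 drawn at the bottom) of 12 genes in each 4 hpf library, actinomycin D in red left of untreated in blue, with replicate 4 of each group as an open diamond. Replicate 4 lies above the other actinomycin D libraries for tbx16, mxtx2, vox and aplnrb, but not for GSC or BTG1, and no actinomycin D library reaches an untreated one.

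Most dorsoventral genes were lower. Of 20 tested, 14 were lower and 0 higher, with a median log2 fold change of -4.92 (-5.72 without actinomycin D replicate 4; -3.51 with floor genes at the floor). The ventral repressors vox, vent and ved, 3 of 3, were lower. vox had 0, 0, 0.616 and 4.19 CPM in actinomycin D embryos and 405, 380, 132 and 129 CPM in untreated embryos, and had a log2 fold change of -7.53 (SE 0.75, edgeR adjusted p 1.222e-06). The BMP ligands BMP2 and bmp7a and the BMP regulators chrd and szl were also lower. chrd, a secreted BMP antagonist, had 0, 0, 0 and 4.54 CPM in actinomycin D embryos and 160, 124, 64.1 and 68.2 CPM in untreated embryos, while szl had 1 count in all 4 actinomycin D libraries together. The untreated szl level was 408.7 times that (95% exact interval 72.9 to 16180).

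The Wnt antagonist dkk1b had 0 counts in all 4 actinomycin D libraries and 6.45, 17.5, 7.32 and 7.16 CPM in untreated libraries, an untreated level at least 7.92-fold higher. GSC, a homeobox factor of the dorsal organizer with maternal RNA, had 7.42, 4.67, 4.31 and 4.89 CPM in actinomycin D embryos and 55.4, 56.1, 43.9 and 40.2 CPM in untreated embryos, and fell by 3.20 on the log2 scale. Of 4 BMP targets tested, 3 were not called. ID3, a BMP target, had 238, 143, 183 and 138 CPM in actinomycin D embryos and 191, 205, 160 and 130 CPM in untreated embryos. AXIN2, a Wnt target, had 58.0, 84.5, 80.7 and 90.8 CPM in actinomycin D embryos and 74.8, 76.7, 57.5 and 76.0 CPM in untreated embryos. The groups overlapped for both, with log2 fold changes of 0.03 (SE 0.25) and 0.15 (SE 0.14). The 1 BMP target called was SMAD7, an inhibitory Smad, which fell by 3.82.

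Most FGF ligands and feedback genes were lower. All 3 ligands tested (FGF3, FGF8 and fgf17) were lower, and of 7 target and feedback genes 5 were lower and 2 were not called. fgf17 had 0, 0, 0 and 1.75 CPM in actinomycin D embryos and 76.9, 63.6, 39.5 and 40.9 CPM in untreated embryos. DUSP6, a phosphatase that dampens the FGF pathway, had 0, 0, 0 and 2.1 CPM in actinomycin D embryos and 62.3, 48.7, 58.2 and 42.9 CPM in untreated embryos. These 2 genes had almost no RNA in actinomycin D embryos, whereas etv5a, an ETS factor downstream of FGF, had 276, 302, 244 and 256 CPM. Untreated embryos had 170, 261, 228 and 220 CPM of etv5a. The etv5a groups overlapped (log2 fold change 0.29, SE 0.14, edgeR adjusted p 0.2469). IL17RD, an FGF feedback inhibitor, was not called either, at 0.22 (SE 0.11). Without actinomycin D replicate 4, 6 of the 10 FGF genes were lower, against 8 with it.

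In the list of epidermis and enveloping layer 18 of 22 genes tested were lower and 1 was higher, with a median log2 fold change of -5.47 (-6.18 without actinomycin D replicate 4, -4.33 with floor genes at the floor). The keratins of the enveloping layer were close to 0. krt18a.1 had 0, 0, 0.308 and 6.98 CPM in actinomycin D embryos and 471, 507, 230 and 224 CPM in untreated embryos. krt8 had 3.71, 2.08, 3.08 and 10.1 CPM in actinomycin D embryos and 451, 457, 126 and 164 CPM in untreated embryos. Untreated replicates 1 and 2 held over 2-fold more of either keratin than replicates 3 and 4, and no library of one group reached the other group. krt92 had 1 count in the 4 actinomycin D libraries together. Of the transcription factors, klf17 and grhl3 fell by 6.35 and 6.18 on the log2 scale.

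Of the same list cdh1, epcam and PPL, genes of epithelial adhesion, were not called. Blocking on the library set called epcam (-0.34, edgeR adjusted p 0.03913) and PPL (-0.76, 0.0192) lower, and cdh1 remained without a call. cdh1, the E-cadherin gene, had 581, 736, 714 and 631 CPM in actinomycin D embryos and 717, 678, 647 and 653 CPM in untreated embryos, with a log2 fold change of -0.02 (SE 0.09, edgeR adjusted p 0.9642). TP63, the p63 factor of basal epidermis, was the 1 higher gene: 18.1, 15.6, 16.3 and 26.2 CPM in actinomycin D embryos and 5.59, 8.73, 10.6 and 14.3 CPM in untreated embryos. Its log2 fold change was 0.94 (edgeR adjusted p 0.03667), and the adjusted p was 0.1611 without actinomycin D replicate 4 and 0.1696 without untreated replicate 1. It also missed the threshold without actinomycin D replicate 1, untreated replicate 2 or untreated replicate 3 (0.05099 to 0.09144).

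Early ectodermal and neural factors were lower in 14 of 16 genes tested and higher in 1, with a median of -5.68 (-7.42 without actinomycin D replicate 4, -5.34 with floor genes at the floor). SOX3 had 0.464, 1.04, 1.54 and 14 CPM in actinomycin D embryos and 271, 339, 286 and 259 CPM in untreated embryos. sox19a, another SoxB1 factor, had 0, 0, 0 and 5.59 CPM in actinomycin D embryos and 177, 203, 132 and 108 CPM in untreated embryos. foxd5, a forkhead factor, had 0, 0, 0 and 8.38 CPM in actinomycin D embryos and 245, 236, 136 and 119 CPM in untreated embryos. In each case all counts beyond a few lay in replicate 4 among the actinomycin D libraries. OTX1, a homeobox factor of the head, was higher, with 382, 433, 345 and 431 CPM in actinomycin D embryos and 205, 212, 288 and 329 CPM in untreated embryos. Its log2 fold change was 0.62 (SE 0.12, edgeR adjusted p 0.0007071), and 0.34 without a call in the second library series alone (0.3922).

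**Figure D4:**
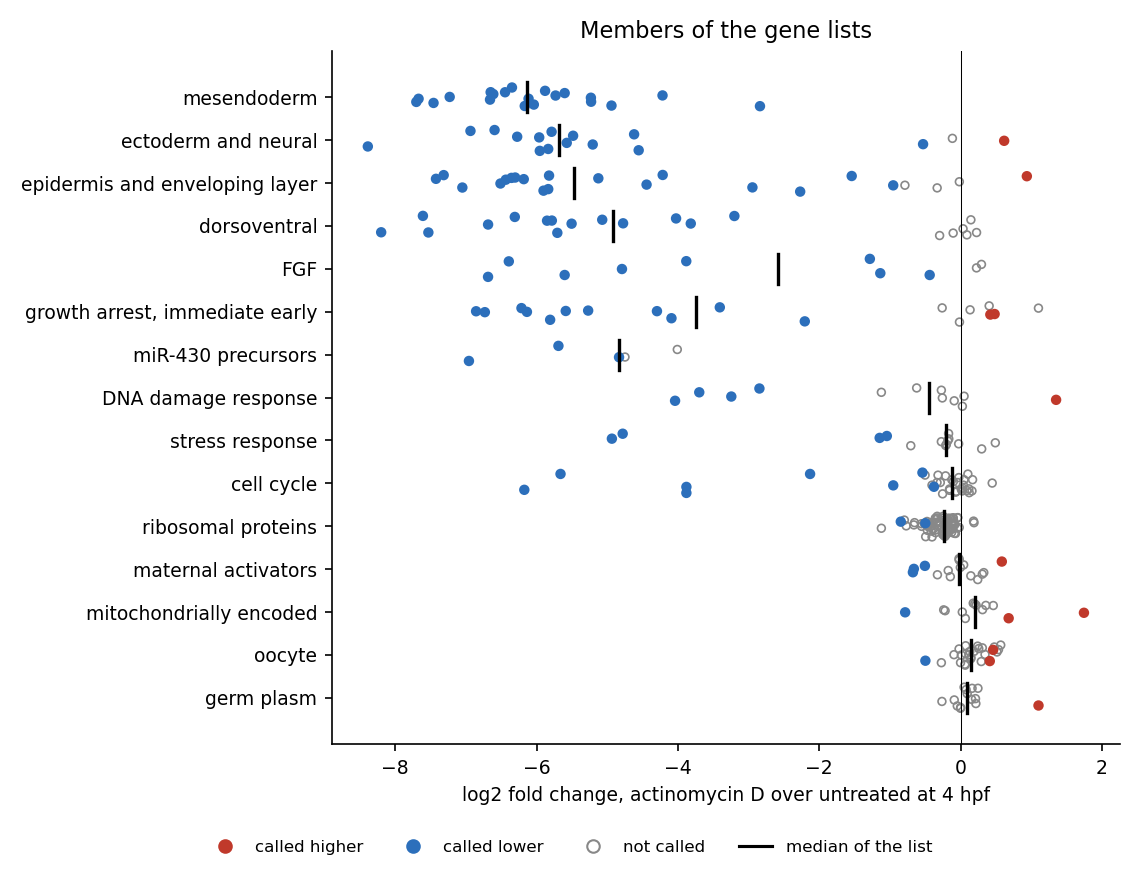
log2 fold change of actinomycin D over untreated at 4 hpf (horizontal) for each tested member of the gene lists (rows), with genes called higher in red, called lower in blue, genes not called as open circles and list medians as bars. Lists of embryonic patterning genes centre between -2.58 (FGF) and -6.14 (mesendoderm), and maternal, oocyte and germ plasm lists centre near 0.

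Copies under one symbol could differ widely. One SOX11 copy (ENSDARG00000077811) had 11.6, 10.4, 6.16 and 22.0 CPM in actinomycin D embryos and 572, 592, 342 and 359 CPM in untreated embryos. The other (ENSDARG00000095743) had 752, 635, 678 and 686 CPM in actinomycin D embryos and 982, 1091, 987 and 917 CPM in untreated embryos. Both were called, with log2 fold changes of -5.21 and -0.53, so the second copy differed much less between the groups. In the second library series alone the second copy was not called (-0.47, edgeR adjusted p 0.103). One MCM6 copy (ENSDARG00000057683), a subunit of the replicative helicase, had 0.464, 0.519, 0.616 and 3.49 CPM in actinomycin D embryos and 104, 91.7, 47.2 and 43.3 CPM in untreated embryos. The other (ENSDARG00000033231) had 246, 246, 242 and 250 CPM in actinomycin D embryos and 258, 239, 243 and 261 CPM in untreated embryos. The first fell by 5.66 and the second had a log2 fold change of -0.03 (SE 0.08). In the frog Xenopus, MCM proteins are known to have maternal and zygotic forms. BAMBI copies, pseudoreceptors that dampen BMP signals, likewise had log2 fold changes of -4.03 and -0.11, the second not called.

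In the cell cycle list 8 of 35 genes tested (22.9%) were lower and 0 higher, with a median of -0.12. The shares over all genes tested were 7.12% lower and 4.39% higher. Without actinomycin D replicate 4, 8 were lower and 1 was higher. CCND1, the G1 cyclin D1, had 5.57, 5.19, 6.16 and 29.3 CPM in actinomycin D embryos and 976, 1365, 558 and 599 CPM in untreated embryos, and fell by 6.17 (SE 0.86, edgeR adjusted p 3.571e-05). CCNE2, a cyclin of S phase entry, had 5.57, 2.08, 3.08 and 7.33 CPM in actinomycin D embryos and 101, 104, 37.7 and 31.7 CPM in untreated embryos. WEE1, the kinase that restrains CDK1, had 46.9, 52.4, 52.4 and 51.7 CPM in actinomycin D embryos and 272, 295, 163 and 165 CPM in untreated embryos, and MCM3 fell by 3.88. The groups overlapped for the mitotic cyclin CCNB1, with 1505, 1522, 1164 and 1683 CPM in actinomycin D and 1127, 1305, 1551 and 1538 CPM in untreated embryos. Other mitotic genes, the cyclin ccnb3, the phosphatase cdc25b and the checkpoint gene bub1bb, were among the lower genes. All lost their calls in the second library series alone (edgeR adjusted p 0.7615, 0.7152 and 0.4852). Without untreated replicate 1, ccnb3 and cdc25b also lost theirs (0.05773 and 0.06333). The call of cdc25b was also lost without actinomycin D replicate 1 or untreated replicate 2 (edgeR adjusted p 0.05425 and 0.06933). With no filter it was lost too (0.06061), at a log2 fold change of -0.34.

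Growth arrest and immediate early genes were lower in 11 of 18 tested and higher in 2, with a median of -3.75 (-2.69 with floor genes at the floor; -4.11 without actinomycin D replicate 4, where 11 were lower and 0 higher). One GADD45B copy (ENSDARG00000013576), a stress-inducible growth arrest gene, had 0, 0, 0 and 2.79 CPM in actinomycin D embryos and 111, 120, 91.5 and 62.4 CPM in untreated embryos. mych, a Myc family factor, had 1.86, 2.59, 2.46 and 6.98 CPM in actinomycin D embryos and 68.8, 88.0, 66.3 and 63.4 CPM in untreated embryos. The groups stood apart for both. The higher members, one MYC copy (log2 fold change 0.48) and btg3 (0.42), lost their calls without actinomycin D replicate 4 (edgeR adjusted p 0.05016 and 0.07954) or untreated replicate 2 (0.09046 and 0.05657). MYC also lost it without untreated or actinomycin D replicate 3 (0.05678 and 0.09891), and btg3 without untreated replicate 1 (0.09748).

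Genes of the DNA damage response were also followed. Of 12 tested, 4 (33.3%) were lower, 1 (8.33%) was higher and 7 were not called, with a median of -0.45. The shares over all genes tested were 7.12% lower and 4.39% higher. CCNG1, a cyclin of the damage response, had 521, 425, 472 and 521 CPM in actinomycin D embryos and 520, 439, 508 and 438 CPM in untreated embryos. The groups overlapped and the gene was not called. The lower genes were cdkn1a, the p21 inhibitor of cyclin-dependent kinases (-4.04), PHLDA3 (-3.70), TP53INP1 (-3.24) and bbc3, the Puma gene (-2.85). cdkn1a had 0, 1, 2 and 5 counts in actinomycin D libraries and 15.5, 19.3, 11.7 and 8.18 CPM in untreated libraries. MDM4, a RING finger protein, was the 1 higher gene and is given below.

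Of 14 stress response genes tested 4 (28.6%) were lower and 0 higher, with a median of -0.21. Over all genes tested 7.12% were lower, so lower calls were more frequent in this list, as a description. Beside HSPB1 the lower genes were atf4b (-4.93), atf4a (-1.15) and TRIB3 (-1.04), of the integrated stress response. TRIB3, a pseudokinase, had 52.0, 45.1, 52.0 and 52.0 CPM in actinomycin D embryos and 127, 101, 95.5 and 92.7 CPM in untreated embryos. The call of atf4a, a transcription factor, rested on untreated replicate 2, at 61.8 CPM, without which its log2 fold change was -0.70 (edgeR adjusted p 0.09699). HSPA8, an abundant chaperone, had 932, 941, 820 and 779 CPM in actinomycin D embryos and 1037, 1026, 978 and 865 CPM in untreated embryos, and was not called.

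miR-430 precursors, which target maternal RNAs for clearance, comprised 55 near-identical identifiers, of which 12 had a count in any of the 8 libraries. Their summed counts were 0, 0, 0 and 9 in actinomycin D libraries and 98, 45, 216 and 135 in untreated libraries, so replicate 4 alone among the actinomycin D libraries had any. Of 5 identifiers tested 3 were lower, among them dre-mir-430b-17 with 0, 0, 0 and 1.75 CPM in actinomycin D embryos and 21.5, 18.7, 40.3 and 28.6 CPM in untreated embryos. dre-mir-430b-6 had 0 counts in all 4 actinomycin D libraries, and its untreated level was at least 4.78-fold higher. How reads were shared among such copies is uncertain, and poly(A)-primed counting measures precursors rather than mature microRNAs.

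Most RNAs present in actinomycin D embryos at 3 hpf, like most genes tested, were not called at 4 hpf. In actinomycin D embryos at 3 hpf, 8235 genes had a mean of 10 CPM or more. These libraries lie outside the 4 hpf contrast but entered its filter, scaling and estimate of the spread. Of the 8235 genes, 7480 (90.8%) were not called at 4 hpf. Of the rest, 466 (5.66%) were higher and 289 (3.51%) lower, beside 4.39% and 7.12% of all genes tested. Over all genes tested 11.5% were called in either direction, so the share not called was close to that of all genes. The lack of a call does not show that a level was kept. At least 2-fold lower were 113 of the 8235 genes, beside 619 of all 11238 genes tested (5.51%), so such calls were rarer here. The minimum of 10 CPM left out genes with little RNA in actinomycin D embryos at 3 hpf. Fewer lower calls therefore followed largely from the choice of genes. The 113 had a median of mean CPM of 20.4 in actinomycin D embryos and 81.0 in untreated embryos at 4 hpf. At 3 hpf the same medians were 21.4 and 29.2 CPM.

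The genes of the maternal activators were modestly lower or not called. nanog had 1082, 910, 977 and 1141 CPM in actinomycin D embryos and 1772, 1631, 1532 and 1630 CPM in untreated embryos, and had a log2 fold change of -0.68 (SE 0.13, edgeR adjusted p 0.0003718). pou5f3 had 440, 470, 490 and 500 CPM in actinomycin D embryos and 758, 728, 577 and 636 CPM in untreated embryos, and fell by 0.51. In the second library series alone neither was called, at -0.57 for nanog (edgeR adjusted p 0.1412) and -0.28 for pou5f3 (0.6448). foxh1, the Smad partner of Nodal signalling, fell by 0.66, and was not called in the first series alone (-0.63, edgeR adjusted p 0.09727). The groups did not overlap for these 3 genes, but they did for sox19b, with 967, 1046, 910 and 925 CPM in actinomycin D embryos and 856, 816, 1184 and 1000 CPM in untreated embryos (log2 fold change -0.00, SE 0.11). EOMES, the maternal T-box factor, was not called either (0.04, SE 0.16). Over the 15 genes tested 3 were lower and 1 was higher, a CREBBP copy (ENSDARG00000104609), a histone acetyltransferase, at 0.58 (SE 0.15), which was not called in either series alone (edgeR adjusted p 0.05208 and 0.2033).

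Germ plasm and oocyte genes were called at shares near those of all genes tested, 4.39% higher and 7.12% lower. Of 14 germ plasm genes tested 1 was higher (7.14%) and 0 lower, with a median of 0.09. Of 26 oocyte genes 2 were higher (7.69%) and 1 lower (3.85%), with a median of 0.15. The counts are thus no result on these lists. The summed germ plasm level was 4044, 4240, 4510 and 4265 CPM in actinomycin D embryos and 2707, 2674, 3605 and 3428 CPM in untreated embryos, without overlap. These sums include buc, described below and named by a rule that required groups without overlap. Of the 14 genes tested, buc was the 1 whose groups did not overlap, so the sums are no separate result on the list. DAZL, a germ cell RNA-binding protein, had 511, 423, 799 and 676 CPM in actinomycin D embryos and 423, 364, 790 and 680 CPM in untreated embryos. org, an oocyte RNA, had 166, 122, 308 and 261 CPM in actinomycin D embryos and 184, 143, 326 and 218 CPM in untreated embryos. Their libraries overlapped and followed the library series, and the levels were lower than at 3 hpf in either group: DAZL averaged 1261 CPM in actinomycin D and 1267 CPM in untreated embryos there, and org 673 and 603 CPM. NANOS3 and ca15b of the germ plasm also had log2 fold changes near 0, of 0.05 (SE 0.14) and -0.00 (SE 0.27).

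In the oocyte list h1m, the maternal linker histone, was higher at 0.41 and YBX1, an RNA-binding protein, lower at -0.50. h1m lost its call without untreated replicate 1 (edgeR adjusted p 0.118) or actinomycin D replicate 2 (0.09877), and YBX1 without untreated replicate 1 or 2 (0.06878 and 0.08085). The other higher gene, larp6b (0.46), was close to the threshold (edgeR adjusted p 0.04901) and lost its call in 6 of the 8 fits without 1 library, replicate 4 of actinomycin D among them (0.1285). BTG4, an adaptor of maternal RNA decay in mammals, was not called at 0.57 (SE 0.28, edgeR adjusted p 0.2485) but passed when library set was blocked (0.00201). With that block 5 of 26 oocyte genes were higher, beside 7.6% of all genes tested. Of 76 ribosomal protein genes tested 2 (2.63%) were lower and 0 higher, with a median of -0.24, beside 7.12% and 4.39% of all genes. With the block 22 were lower, beside 8.91% of all genes tested. The 2 lower genes of the main fit, RPL36 (-0.85) and RPS3A (-0.50), both lost their calls without untreated replicate 1 or actinomycin D replicate 3. RPS3A also lost its call without actinomycin D replicate 4, actinomycin D replicate 2 or untreated replicate 2.

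The 493 higher genes differed by less than the lower ones, with a median log2 fold change of 0.68. Their median of mean CPM was 79.5 in actinomycin D embryos and 49.5 in untreated embryos at 4 hpf, and 82.4 and 80.5 CPM at 3 hpf. The groups did not overlap for 400 of the 493; over all genes, all 4 actinomycin D libraries lay above all 4 untreated libraries for 666 (5.93%). Their median log2 ratio of actinomycin D to untreated embryos at 3 hpf was 0.02. The 3 hpf libraries entered the calls only through the shared filter, scaling and estimate of the spread. The median ratio of 4 to 3 hpf was 0.05 in actinomycin D embryos and -0.70 in untreated embryos; these ratios share the 4 hpf libraries that chose the genes and are a description.

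Among the higher genes of smallest p, M6PR, a receptor that sorts lysosomal enzymes, had 182, 171, 175 and 148 CPM in actinomycin D embryos and 58.4, 56.8, 83.1 and 75.7 CPM in untreated embryos. Its log2 fold change was 1.29 (SE 0.12, edgeR adjusted p 6.252e-08), and both groups averaged 144 CPM at 3 hpf. STARD7, a lipid transfer protein, had 105, 142, 106 and 102 CPM in actinomycin D embryos and 30.1, 34.3, 48.0 and 55.2 CPM in untreated embryos. Others were LUZP1 (1.23), NIBAN2 (1.39), FRMD4B (1.06), PPP2R2D (1.27), LRRCC1 (1.50), RNASEH1 (1.44) and ICE2 (1.06), and buc and MDM4, which follow.

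buc, which encodes the organizer of the germ plasm, was the higher gene of highest level, with 1935, 2052, 1784 and 1979 CPM in actinomycin D embryos and 661, 894, 999 and 1083 CPM in untreated embryos. It was the 1 germ plasm gene called, at 1.09 (SE 0.13, edgeR adjusted p 2.123e-06), and at 3 hpf it averaged 2010 CPM in actinomycin D and 1907 CPM in untreated embryos. h2af1al, of the histone H2A family, had 1429, 1013, 1216 and 1124 CPM in actinomycin D embryos and 378, 405, 738 and 547 CPM in untreated embryos. MDM4 had 260, 287, 292 and 231 CPM in actinomycin D embryos and 62.7, 76.7, 146 and 131 CPM in untreated embryos, a log2 fold change of 1.35. Untreated replicates 1 and 2 were the lowest untreated libraries for all 3 genes, which were named by a rule that required groups without overlap. The remaining gene of this rule, si:dkey-182g1.2, was higher at 1.02. In the second library series alone h2af1al (0.88, edgeR adjusted p 0.07081) and si:dkey-182g1.2 (0.67, 0.5357) were not called.

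**Figure D5:**
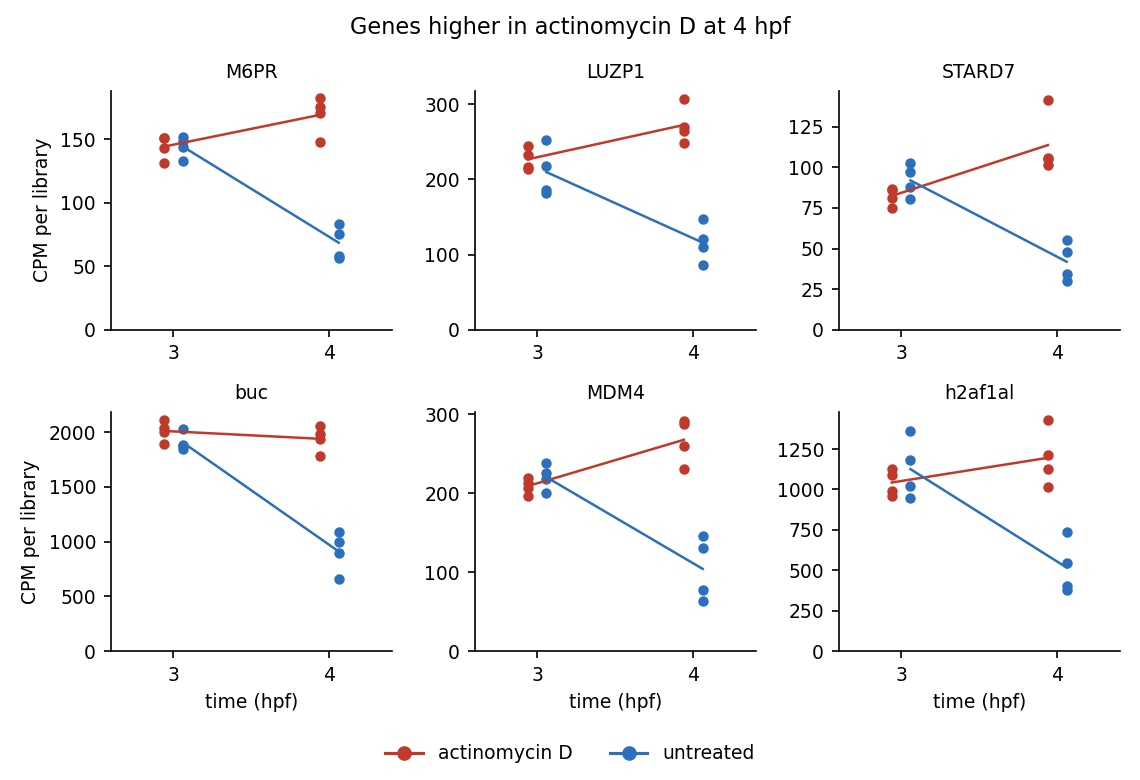
CPM in each library (points) and group means (lines) at 3 and 4 hpf for 6 genes higher in actinomycin D at 4 hpf, actinomycin D in red and untreated in blue. For M6PR both groups average 144 CPM at 3 hpf, and at 4 hpf the untreated libraries lie at 56.8 to 83.1 CPM, below the actinomycin D libraries at 148 to 182 CPM.

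The difference at 4 hpf was set against that at 3 hpf in the same fit. At 3 hpf 46 genes (0.409%) were lower and 2 (0.0178%) higher, and the 46 are 5.75% of the 800 lower at 4 hpf. For 194 genes (1.73%) the effect differed between the times. Among the named genes it was larger at 4 hpf for NOCT (by -2.85 on the log2 scale, edgeR adjusted p 9.105e-06), PRKCD (-3.22), h2ax (-3.03) and CCNE2 (-3.77), and for M6PR (by 1.30) and buc (by 1.02) in the other direction. For mxtx2 and grhl3, already at means of 50.4 and 73.3 CPM in untreated embryos and about 0.1 CPM in actinomycin D embryos at 3 hpf, a difference between the times was not called (edgeR adjusted p 0.912 and 0.8613).

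Of 13 mitochondrially encoded genes, transcribed by a separate polymerase, 2 (15.4%) were higher and 1 (7.69%) lower, with a median of 0.20. Over all genes tested the shares were 4.39% higher and 7.12% lower. MT-ND6, a complex I subunit, had 75.2, 63.3, 57.3 and 56.9 CPM in actinomycin D embryos and 14.2, 26.2, 21.6 and 14.3 CPM in untreated embryos, with a log2 fold change of 1.74 (SE 0.30, edgeR adjusted p 0.0001373). It was also higher at 3 hpf, by 1.44 (edgeR adjusted p 0.01987). mt-nd4l was higher at 0.68 but lost its call without 1 library in 6 of 8 cases, replicate 4 of actinomycin D among them (edgeR adjusted p 0.05842). MT-ND3 was lower at -0.78, and not called without untreated replicate 1 (edgeR adjusted p 0.05544). Whether reads were counted by strand is not given in the sources used here, so MT-ND6 and the genes on the other strand of the mitochondrial genome may share reads.

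The gene higher by more than 32-fold was ENSDARG00000083480, which has no symbol and was picked out after its values were seen. It had 98, 77, 108 and 70 counts in actinomycin D libraries and 0, 0, 2 and 0 counts in untreated libraries at 4 hpf. At 3 hpf it averaged 26.1 CPM in actinomycin D embryos and 0.438 CPM in untreated embryos. All 8 actinomycin D libraries thus held this RNA and the untreated libraries held almost none, at both times, and it was 1 of the 2 genes higher at 3 hpf, with MT-ND6. Its untreated total of 2 counts leaves the size of the ratio imprecise.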

How the data were processed

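Total RNA from whole embryos was made into QuantSeq libraries, per the labels' protocols, which sequence the 3′ ends of polyadenylated transcripts, so no length correction was applied. The deposited files hold raw read counts per gene. Bowtie2 2.3.4.1, featureCounts and Subread 1.6.2 with GRCz11 are named, per the submitters' processing notes. The annotation release, strand setting and use of molecular identifiers are not given in the sources used here. A symbol was matched for 29201 of 32520 identifiers, leaving 3319 without.

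Counts of all 24 libraries were filtered with filterByExpr, scaled by TMM and fitted with 1 mean per treatment and time by edgeR 4.0.16 (glmQLFit, robust, glmQLFTest) in R 4.3.3, with Benjamini-Hochberg adjustment over all genes tested and a call at 0.05. The SE is the size of the log2 fold change divided by the square root of F. limma 3.58.1 and DESeq2 1.42.0 gave alternatives. The scripts were tested on simulated data. Single library measures were compared by exact permutation over the 70 arrangements. Intervals are 95% exact, and intervals and the floor of 3 counts cover counting error only.

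The genes named by rule had a symbol, an adjusted p under 0.05, at least a 2-fold difference and no overlap between groups: the 12 of smallest p and the 6 of highest level in each direction, the 6 of highest untreated level at the floor, and the 6 of highest share in actinomycin D replicate 4. The other genes named are list members or copies, and some genes that the rule or lists held are not reported here. The members and lists were chosen with earlier results of these data known.

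Library numbers fall into 4 sets of adjacent numbers in 2 series, which the labels do not explain. Deviations from the group means correlated at 0.2696 to 0.4529 between libraries of a set, across genes, and at 0.0255 or less between others. The libraries of a set were thus paired. The main fit did not use this pairing, so its calls, SE and adjusted p-values are unpaired. The exact permutation tests did not use it either. Only the fit blocked on the library set used it, with 854 genes higher and 1001 lower, against 493 and 800 in the main fit. No 2 libraries of a group agreed within sampling noise (chi-square per gene 5.28 or more).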

Additional observations from a re-analysis of the deposited data

Results flagged for a closer look

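Single libraries stood far from the rest of their group for several gene levels, list levels and library measures, judged by the gap to the nearest library as a share of the group's range, with Dixon's 95% critical value for 4 libraries as the threshold. Chance marks about 1 in 20 groups. In actinomycin D replicate 4 the share was 1.0 for the genes with no counts in replicates 1 to 3, where any count gives that value: admp, PRICKLE1, bif1.2, si:dkey-11o15.10, ONECUT1, SOX17, mxtx2, GATA5, tbx16, tbxta, noto, aplnrb, chrd, szl, fgf17, DUSP6, krt92, foxd5, GADD45B, sebox, sox19a, dre-mir-430b-17 and dre-mir-430a-13. It was 0.907 for CCND1, 0.906 for the MCM6 copy ENSDARG00000057683 and 0.854 for krt18a.1 in the same library. For mean log2 CPM of whole lists, replicate 4 had a share of 0.889 for mesendoderm, 0.875 for dorsoventral genes, 0.906 for ectodermal and neural factors and 1.0 for miR-430. The share was 0.979 for the percentage of counts in lower genes at the floor in replicates 1 to 3. Those genes were chosen as at the floor in replicates 1 to 3, and miR-430 had no counts there. Both of these values therefore follow from the choice or from the zeros. Its cause was not tested.

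Other libraries were marked singly. In actinomycin D replicate 2 the share was 1.0 for ndr2, 0.874 for STARD7, 0.99 for TRIB3 and 0.858 for the oocyte list. For ndr2 it rested on 1 count, with 0 counts in the other actinomycin D libraries. It was 0.856 for RNASEH1 in actinomycin D replicate 3 and 0.878 for WEE1 in actinomycin D replicate 1. In untreated replicate 2 it was 0.876 for dkk1b and 0.871 for the number of genes detected at full depth, and this library had the lowest total count. In untreated replicate 3 it was 0.910 for AXIN2, 0.976 for irx7 and 1.0 for ENSDARG00000083480, which had 0 counts in the other untreated libraries.

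The actinomycin D effect differed between 4 and 3 hpf by the interaction test in edgeR for these named genes, given as the log2 effect at 4 hpf minus that at 3 hpf. Among lower genes it was -2.85 for NOCT, -2.73 for ovol1a, -1.74 for BTG1, -3.22 for PRKCD, -1.58 for BRD2, -1.50 for AMOTL2, -2.22 for hnrnpa0a and -3.77 for YY1 and si:dkeyp-104f11.6. It was -2.46 for RHOV, -3.03 for h2ax, -2.29 for rhoaa, -1.45 for hnrnpa0b, -2.85 for hmgn1b, -3.75 for SMAD7, -4.88 for krt8, -3.57 for PHLDA3 and -3.77 for CCNE2. For WEE1 it was -1.74, for the SOX11 copy ENSDARG00000095743 -0.50, for atf4a -1.65 and for TP53INP1 -2.61. Among higher genes it was 1.30 for M6PR, 1.58 for STARD7, 1.12 for LUZP1, 1.02 for buc, 1.29 for NIBAN2, 0.93 for FRMD4B, 1.43 for MDM4, 1.16 for PPP2R2D, 1.37 for LRRCC1, 1.23 for RNASEH1, 0.81 for ICE2 and 1.32 for h2af1al.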

How the results depend on the processing

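No called gene among those named changed direction under the alternatives run, but the balance of calls did under 1 filter. The 1293 genes called ranged from 919 to 1438 with 1 library left out, the 493 higher from 259 to 578, the 800 lower from 660 to 860, those at least 2-fold higher from 56 to 135 and those at least 2-fold lower from 566 to 679. With no filter 1018 genes were at least 2-fold lower. With 10 counts required in every library, a rule that removes genes absent in actinomycin D embryos, 675 were called. Of these 352 were higher and 323 lower, so that higher genes outnumbered lower ones. At least 2-fold higher were 60, and at least 2-fold lower were 146. From the 8 libraries alone 269 were higher. DESeq2 gave 326 higher and 948 at least 2-fold lower. In the first series alone 195 were at least 2-fold higher. In the second series alone 471 were called, 70 higher and 401 lower, of which 32 and 388 by at least 2-fold. The cause was not tested.

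With the library set as a replicate block, the pairing raised the number higher to 854. Of 132 named genes, 129 stayed on their side of the threshold under the block, and BTG4, epcam and PPL gained a call. With the block 22 of 76 ribosomal protein genes were lower against 2, and 6 of 12 DNA damage response genes against 4. Higher were 5 of 26 oocyte genes against 2, and 1 of 14 stress and 1 of 35 cell cycle genes against 0. Over all genes tested the block called 8.91% lower and 7.6% higher, so these counts are descriptions beside those shares.

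Lower genes at the floor in every actinomycin D library numbered 186 at 3 counts, 92 at 1 count, 351 at 10 counts and 357 without actinomycin D replicate 4. Of the 132 named genes, 36 lost their call in the second series alone, 8 in the first and 8 with the 8 libraries alone. Those lost in the second series included malat1, marcksl1b, admp, tbx16, aplnrb, SOX17, SOX3, foxd5 and DUSP6. Their edgeR adjusted p there ran from 0.05608 to 0.187, with log2 fold changes from -4.20 to -7.26. The median log2 fold change of all genes was 0.07 with total counts and -0.09 with DESeq2, against 0.02. Shares of miR-430 seed matches and promoter motifs were not run. Depth limits the statements on genes at 3 counts or fewer.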

Other observations

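Copies of RRM2, a subunit of ribonucleotide reductase, varied widely among libraries of a group. The copy ENSDARG00000020711 had 1732, 954, 2170 and 656 CPM in actinomycin D embryos and 1610, 763, 2857 and 911 CPM in untreated embryos at 4 hpf. The copy ENSDARG00000078069 had 1136, 1754, 279 and 2171 CPM in actinomycin D embryos and 1084, 1844, 164 and 1660 CPM in untreated embryos. Neither was called, with log2 fold changes of -0.16 (SE 0.50) and 0.17 (SE 0.78). miR-430 precursors at 3 hpf had 0 summed counts in all 4 actinomycin D libraries and 330, 147, 136 and 180 summed counts in untreated libraries.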
